A study of Brassica napus with 6 samples.

Results

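Across the 100919 genes in the count files, 90 genes were silent in wild-type (WT) cotyledons of oilseed rape (Brassica napus) and active in those of a bnsdp1 mutant. A gene was taken as a member with a raw count of at least 20 in each of the 3 mutant libraries and at most 2 in each of the 3 WT libraries. These counts chose the members, so the difference between the genotypes in the members is a description and was not tested. Each genotype had 3 libraries of poly(A) RNA from seedlings grown on half-strength MS medium with 1% sucrose in the dark for 4 days and then moved to normal conditions for 6 h. WT and mutant seedlings shared this treatment, and the mutant is a single line, labelled bnsdp1#CR88. Whether each library of a genotype had its own seedlings is not stated in the labels, so the p-values given rest on library-to-library spread, which may be technical.

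SDP1 (SUGAR-DEPENDENT1) is a lipase of the oil body surface that begins the breakdown of stored triacylglycerol in germinating seeds. Fatty acids released in this way feed the growth of the seedling until photosynthesis takes over, and sucrose in the medium can stand in for them. B. napus carries an A and a C subgenome, so most genes exist as related copies, and one copy may be read in a tissue where the other is not. Each member is named only by its identifier: the files pair none with a gene name, and a RefSeq table of the Da-Ae assembly matched 0 of the identifiers. Roles of the members, and the level of the SDP1 copies, are therefore not analysed here. In whole cotyledons, fewer cells that use a gene and less RNA per cell cannot be told apart.

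Libraries held 48288744 to 65550668 counts in genes. Counts were mostly even numbers: 81.9% to 85.8% of the values from 1 to 10 were even, and in WT replicate 1 4201 genes had 2 counts while 569 had 1 count. The same excess of even values was present in the members' mutant counts, of which 203 of 270 were even. A count of 2 may thus be 1 read pair, and the member limit of 2 then stands for at most 1 pair per WT library. Among the 270 WT values of the members, 172 were 0, 11 were 1 and 87 were 2.

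Most members were read at a low level in the mutant. Mean mutant CPM (a gene's count scaled to a library sum of 1e6) ranged from 0.431 to 40.02 with a median of 1.22, against 5.59 for the other 47479 genes with at least 20 counts in each mutant library. Only 7 members reached 5 CPM and 20 reached 2 CPM, while 37 stayed under 1 CPM. All 90 members passed the filter on low counts and were called higher in the mutant by edgeR, where 25.5% of all 56385 genes tested were called higher and 51.7% were called in either direction. As the rule used this contrast, nothing is read from that count. Of the members, 24 had 0 counts in all WT libraries. A WT count of 0 was taken to allow up to 3 read pairs (6 counts) over the WT libraries, or 0.0345 CPM. On that limit the lower bounds for the mutant over WT in these 24 genes ran from 12.5-fold to 184-fold, with a median of 39.9-fold. Intervals and bounds cover counting error only and take 2 counts as 1 read pair. They make no allowance for the choice of genes by these same counts.

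BnaC04G0312300ZS (chromosome C04, 42182727 to 42186661, plus strand) had the highest level, at 42.5, 36.5 and 41.1 CPM in mutant replicates 1, 2 and 3. Its mean was 40.02 ± 3.17 CPM (SD, n = 3), and it had 2 counts in each WT library. With 2 counts taken as 1 read pair, the ratio of mutant to WT pairs, divided by pooled library size, was 1156 (exact 95% counting interval 395 to 5607). This gene stood alone: its nearest genes, 27732 bp upstream and 21761 bp downstream, had 0 counts in all 6 libraries. BnaA01G0013200ZS (A01, 820221 to 821632, plus strand) followed at 24.2, 18.9 and 18.2 CPM, with 0, 2 and 0 WT counts. These 2 genes held 30.3% of all mutant counts of the members.

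The next 5 genes had means between 5.53 and 6.60 CPM. BnaA08G0138500ZS (A08, 18825070 to 18826729, plus strand) was at 6.98, 5.97 and 6.84 CPM in the mutant replicates, with 2, 0 and 2 WT counts. BnaA10G0271300ZS (A10, 25149996 to 25151301, plus strand) was at 6.85, 5.49 and 6.81 CPM, with 0 WT counts. BnaC09G0588100ZS (C09, 66114724 to 66116035, plus strand) was at 6.21, 5.42 and 7.40 CPM, with 0, 0 and 2 WT counts. All mutant values of the 3 genes exceeded every WT value, as the rule requires, and the 3 genes overlapped in level. BnaA01G0019800ZS (A01, 1180091 to 1181193, minus strand) was at 8.12, 5.51 and 5.08 CPM, with 2, 0 and 0 WT counts. BnaC07G0456600ZS (C07, 55578227 to 55579735, minus strand) was at 5.80, 4.84 and 5.96 CPM, with 0 WT counts. Mutant replicate 1 was highest for the former, and replicates 1 and 3 were alike for the latter.

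The other 5 of the 12 most abundant members had means from 3.09 to 4.41 CPM. BnaC01G0245400ZS had 5.14, 4.58 and 3.51 CPM, and BnaC05G0483100ZS had 3.23, 3.24 and 4.19 CPM. BnaA02G0152200ZS had 5.82, 2.89 and 3.66 CPM, the widest range of these 5 genes in CPM, and BnaC05G0134700ZS had 4.14, 3.04 and 2.10 CPM. The level of BnaC08G0134800ZS was 3.19, 3.46 and 2.61 CPM. Per kb of span the order changed. BnaC05G0134700ZS, the shortest member at 213 bp, had 14.5 CPM per kb, as did BnaA01G0013200ZS, and BnaC01G0245400ZS with 309 bp had 14.3. BnaC04G0312300ZS had 10.2 and BnaC05G0483100ZS 0.925 CPM per kb. Across the members the median was 1.15 CPM per kb against 2.99 for the other genes with at least 20 counts in each mutant library.

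**Figure D1:**
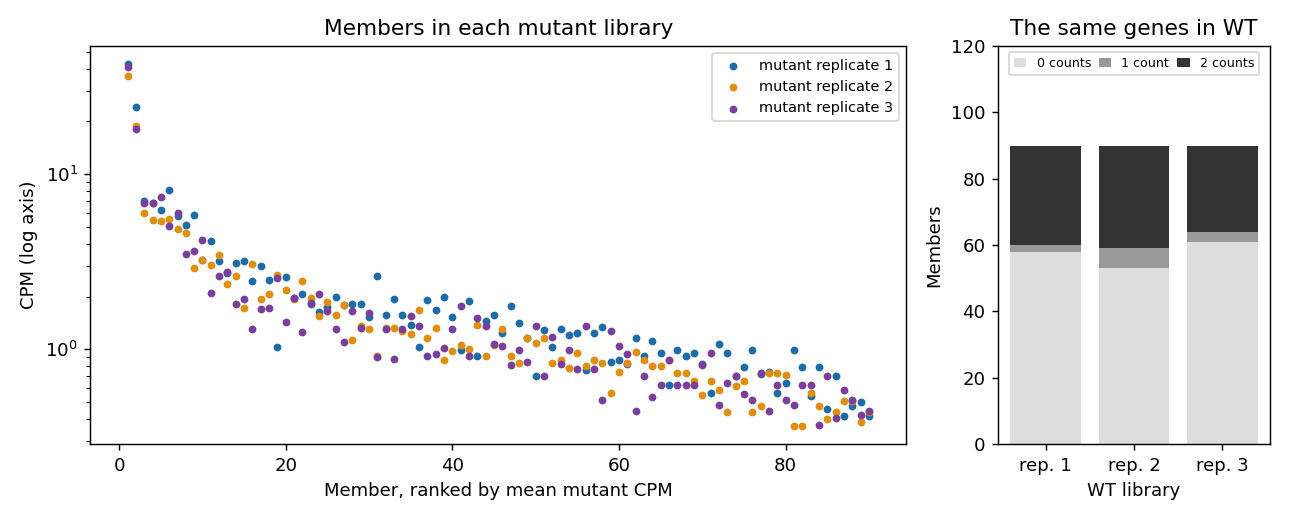
Left, CPM of the 90 members in each mutant library (log axis), ranked by their mean; each point is 1 library. Right, number of members with 0, 1 or 2 counts in each WT library. The mean falls from 40.02 CPM to 0.431 CPM, and 53 to 61 members had 0 counts in a WT library.

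The threshold cut through a continuous range. In 5 members the lowest mutant count was exactly 20, among them BnaC08G0135000ZS, with 20, 24 and 24 counts, and BnaC05G0153200ZS, with 20, 28 and 32 counts. In all, 13 members had a lowest mutant count of 20 to 24, with a median of 0.543 CPM. Just outside, 30 genes had a lowest mutant count of 15 to 19 and at most 2 WT counts, with a median of 0.423 CPM. On the WT side, 61 members had a WT count of 2 (median 1.05 CPM in the mutant), and 62 genes missed the rule by a WT count of 3 or 4 (median 1.01 CPM).

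The mutant libraries did not carry the members at equal levels. Mutant replicate 1 was the highest library for 55 of 90 members (61.1%), replicate 3 for 22 and replicate 2 for 13. Among the other genes with at least 20 counts in each mutant library, replicate 1 was highest for 41.1%. Replicate 3 was the lowest library for 42 members (46.7%), against 26.0% of those other genes. Without the 2 most abundant members, the members summed to 159, 129 and 130 CPM in mutant replicates 1, 2 and 3, and to 1.06, 0.976 and 1.03 CPM in the WT replicates. Mutant replicate 1 lay above the other mutant libraries, whose sums were alike.

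The coefficient of variation (CV, SD over mean) between mutant libraries had a median of 23.6% in the members and 10.2% in the other genes with at least 20 counts in each mutant library. The members were lower in level than these genes, so the medians were also compared within bands of CPM. Between 0.4 and 1 CPM the medians were 24.1% for 37 members and 21.9% for the other genes. From 1 to 2 CPM they were 23.6% for 33 members and 18.2%, and from 2 to 5 CPM 28.3% for 13 members and 12.3%. The 7 members above 5 CPM had a median of 12.1%, against 7.62% for other genes up to 50 CPM. In this wide band 5 of the 7 members lay between 5.53 and 6.60 CPM, and levels within it were not matched. Without mutant replicate 1 the median was 15.003% in the members and 7.54% in the other genes. In the other genes at 1 to 2 CPM it was then 13.2%. Leaving out replicate 2 gave 26.4% in the members and 15.9% in the other genes at 1 to 2 CPM. Leaving out replicate 3 gave 16.1% and 15.7%. The members were not split by level in these settings. An at least 2-fold range between mutant libraries was present in 19 members (21.1%) and in 5.07% of the other genes. Within the same bands the shares were 27.03% and 16.7% between 0.4 and 1 CPM, 18.2% and 13.5% from 1 to 2 CPM, and 23.1% and 3.57% from 2 to 5 CPM. Above 5 CPM 0 of 7 members and 0.827% of the other genes had such a range.

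**Figure D2:**
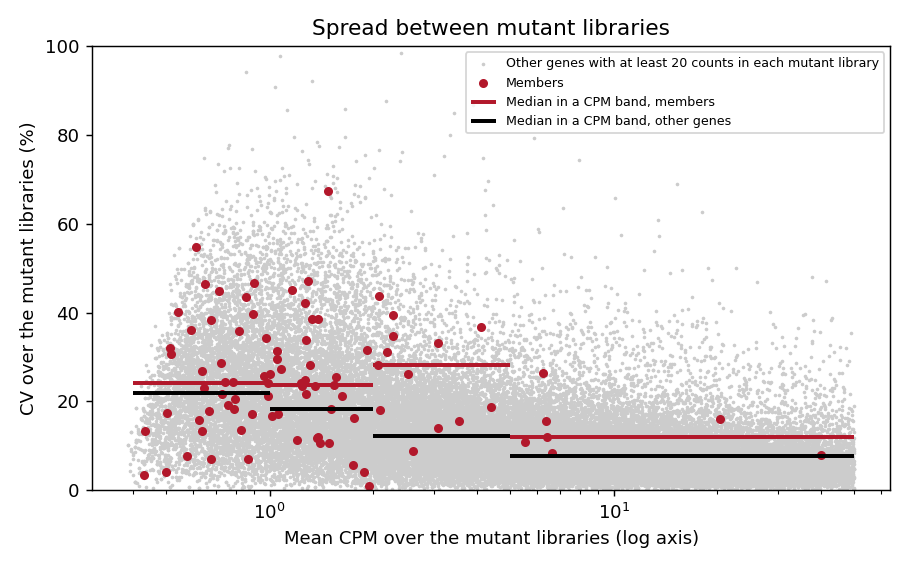
CV over the 3 mutant libraries (%, axis ends at 100) against the mean mutant CPM (log axis, up to 50 CPM); red points are members, grey points the other genes with at least 20 counts in each mutant library, and lines the medians within bands of CPM. The red lines lie above the black ones in each band, by the least in the lowest band (24.1% and 21.9%). Levels were not matched within a band.

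Single members were far from the middle of this spread. BnaC03G0221500ZS had the highest CV, 67.3%, with 2.63 CPM in mutant replicate 1 and 0.910 and 0.901 CPM in replicates 2 and 3. The next were BnaC01G0033200ZS (0.994, 0.364 and 0.478 CPM) and BnaA04G0004100ZS (1.99, 0.873 and 1.01 CPM), again with replicate 1 on top. The lowest CV, 0.999%, belonged to BnaA08G0093800ZS, with 1.97, 1.93 and 1.95 CPM and 0 WT counts. BnaC08G0135000ZS (0.414, 0.437 and 0.442 CPM) and BnaC08G0180900ZS (1.82, 1.96 and 1.84 CPM) were nearly as even.

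Members had shorter spans than most active genes. Their median span from gene start to gene end, introns included, was 1189 bp, against 1883 bp in the other genes with at least 20 counts in each mutant library and 1399 bp in all genes. Spans of up to 350 bp made up 12 of 90 members (13.3%), 3.10% of those active genes and 10.05% of all genes. In span the members thus stood nearer to the whole annotation than to the active genes. The members were lower in level than the active genes (medians 1.22 and 5.59 CPM), and spans were not compared at matched levels. The 3 members of at least 5 kb were far longer than that limit, at 23201 bp (BnaC05G0170700ZS), 25756 bp (BnaC07G0254300ZS) and 39324 bp (BnaC02G0184000ZS); the first 2 are named after their values were seen. BnaC02G0184000ZS, at 0.559, 0.655 and 0.957 CPM in the mutant and 2, 0 and 2 WT counts, was also the member with the lowest level per length, 0.0184 CPM per kb. A span that is a multiple of 3 was found in 44 members (48.9%), 46.9% of all genes and 40.5% of the active genes. None of the members overlapped another gene, and overlap was rare in the other active genes (734 of 47479) and in all genes (1168 of 100919).

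**Figure D3:**
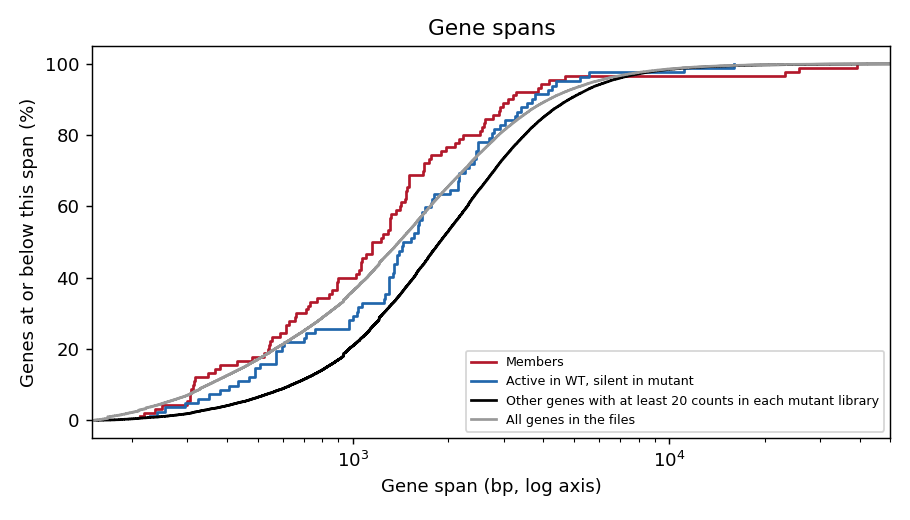
Share of genes (%) at or below each gene span (bp, log axis) for the members, the genes active in WT and silent in the mutant, the other genes with at least 20 counts in each mutant library, and all genes. The members' curve lies left of that of the active genes over most of the range, with medians of 1189 and 1883 bp.

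Both subgenomes and all 19 chromosomes held members. There were 41 on A chromosomes (45.6%) and 49 on C chromosomes (54.4%), near the shares in the other active genes (48.2% and 50.8%) and in all genes (44.0% and 52.1%). None lay on unplaced sequences, which hold 0.965% of the other active genes. Chromosomes C04 and C05 had 9 members each, or 3.25 and 3.17 per 1000 genes with at least 20 counts in each mutant library. A05 had 1, or 0.384 per 1000. These were the extremes of the 19 chromosomes, and the others ranged from 0.921 (C06) to 2.93 (A02) per 1000. Differences between chromosomes were not tested. The plus strand held 41 members. The median number of genes within 250 kb on either side was 70.5 for members and 68.0 for the other active genes. The gap to the nearest gene was wider, with a median of 1852 bp for members, 827 bp for the other active genes and 1060 bp for all genes; this difference was not tested. Chromosome ends (the last 1 Mb on either side) held 6 members (6.67%) and 5.91% of the active genes. The first 15 Mb of A01 held 4 members among 2281 genes, against 90 among all 100919 genes. Of these 4, 3 lay in the first 3 Mb, which held 556 genes.

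Members were scattered. No member was next to another in gene order, and the median distance to the nearest member on the same chromosome was 2.59 Mb, with 364 genes between. Within 1 Mb of another member lay 21 genes, and within 100 kb only 4, which form the pairs described next; these were singled out after their values were seen.

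On C05, BnaC05G0134700ZS (8440789 to 8441001, minus strand) and BnaC05G0134900ZS (8446380 to 8447605, minus strand) were 5.38 kb apart. The counts of BnaC05G0134700ZS were 200, 167 and 114 in the mutant replicates and 0 in WT. BnaC05G0134900ZS had 119, 169 and 71 counts in the mutant replicates and 0 in WT. The gene between them, BnaC05G0134800ZS on the plus strand, had 34, 13 and 3 counts in the mutant and also 0 in WT; it was not tested because it did not pass the filter on low counts. All 3 genes were lowest in mutant replicate 3, as were 46.7% of all members, and none had a WT read. Around them the picture changed: BnaC05G0134600ZS and BnaC05G0134500ZS on one side were not called (edgeR adjusted p = 0.102 and 0.188). BnaC05G0134400ZS, 2 genes further out than BnaC05G0134600ZS, rose from 4, 6 and 10 counts to 57, 42 and 27 (log2 fold change 2.82, edgeR adjusted p = 0.000993). On the other side BnaC05G0135000ZS had 0, 12 and 6 counts in WT and 0, 2 and 2 in the mutant.

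The C08 pair lay in sparser surroundings, with 22 and 24 genes within 250 kb of the members. BnaC08G0134800ZS (23896431 to 23896736, plus strand) had 154, 190 and 142 counts in the mutant and 2, 0 and 1 in WT. BnaC08G0135000ZS (23973788 to 23974677, plus strand), 77.1 kb away, had 20, 24 and 24 counts and 0 in WT. Between them BnaC08G0134900ZS had 6, 11 and 11 counts in the mutant and 4, 0 and 0 in WT, and the next gene out, BnaC08G0135100ZS, had 2, 3 and 3 against 0. Both were too low to be tested. BnaC08G0134700ZS, BnaC08G0135200ZS and BnaC08G0135300ZS had 0 counts in all libraries, and BnaC08G0134600ZS fell from 18, 17 and 16 counts to 4, 4 and 6 (log2 fold change -1.67, edgeR adjusted p = 0.0112).

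**Figure D4:**
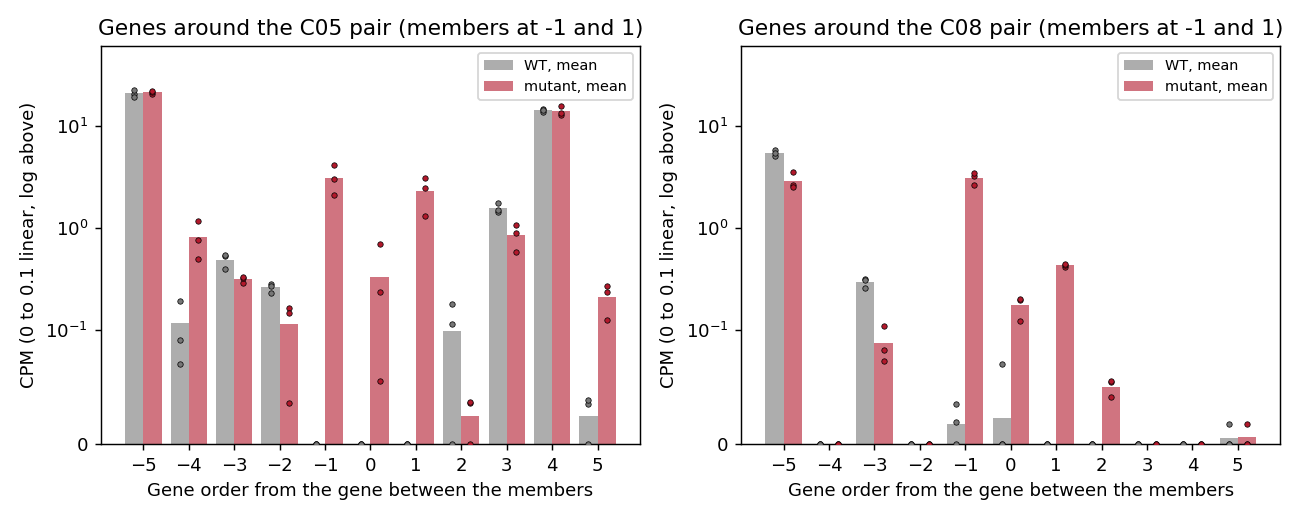
Mean CPM (bars) and single libraries (points) of WT and mutant for the genes around the C05 and C08 pairs in gene order; the axis is linear up to 0.1 CPM and logarithmic above. The members stand at -1 and 1, with the gene between them at 0, which in WT had 0 counts on C05 and 4 counts in 1 library on C08.

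Genes that flank the members were not chosen by the rule, and many of them rose. Of the 180 nearest genes on either side, 108 passed the filter and were tested. Among these 49 (45.4%) were called higher and 19 (17.6%) lower in the mutant, against 25.5% and 26.2% of all genes tested (edgeR, adjusted p under 0.05). The median log2 fold change, mutant over WT, was 0.36 in the tested flanks and 0.02 in all genes tested. Of the 49 flanks that rose, 32 rose at least 2-fold. Genes with a raised neighbour were common elsewhere too: next to the 5117 other genes called at least 2-fold higher, 38.1% of tested flanks were called higher, and next to the 398 called at least 16-fold higher 38.9%. Next to the other genes with at least 20 counts in each mutant library the share was 26.8%. Whether the members differ from other raised genes in this respect was not tested. The count was uneven over the members: flanks of the 24 members with 0 WT counts rose in 8 of 27 cases (29.6%), and those of the 66 members with 1 to 6 WT counts in 41 of 81 (50.6%). The former share is close to that of all genes tested, and the difference between these groups of members was not tested.

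The share of raised flanks was highest at the nearest genes. At the second gene from a member 39.0% of tested genes were called higher, at the third 25.2%, at the fourth 26.4% and at the fifth 31.6%. Flanks less than 2 kb away were called higher in 21 of 38 cases (55.3%), those 2 to 10 kb away in 21 of 43 (48.8%), and those at 10 kb or more in 7 of 27 (25.9%). Counts also varied with side and strand. Of the nearest downstream genes on the member's own strand, 15 of 23 tested were called higher (65.2%) and 1 lower, with a median log2 fold change of 1.38. Nearest upstream genes on the opposite strand were called higher in 16 of 33 cases and lower in 3. For upstream genes on the same strand the counts were 4 of 19 higher and 7 lower, the only arrangement in which more were lower. Downstream genes on the opposite strand were higher in 14 of 33 cases. Next to the other genes called at least 16-fold higher, downstream genes on the same strand were called higher in 51 of 125 cases (40.8%). Differences between these arrangements were not tested, and the sources used here do not give the strand setting of the counts.

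**Figure D5:**
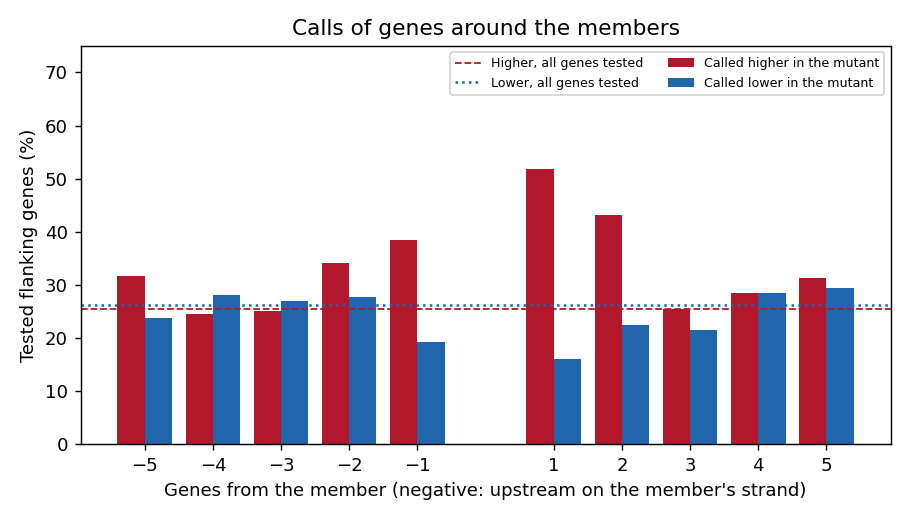
Share of tested flanking genes (%) called higher or lower in the mutant at 1 to 5 genes from a member, upstream (negative) or downstream on the member's strand; dashed and dotted lines give the shares over all genes tested. The first downstream gene was called higher in 51.8% of cases and the first upstream gene in 38.5%, against 25.5% of all genes tested.

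Several members lay beside genes with far larger counts that rose in the mutant. BnaA01G0019700ZS, 732 bp from the 3′ end of BnaA01G0019800ZS on the opposite strand, rose from 290, 280 and 242 counts to 24339, 30389 and 24854 (log2 fold change 6.79, SE 0.14, edgeR adjusted p = 2.51e-09). The member's mutant counts came to 1.22% of those of this neighbour. Its other neighbour, BnaA01G0019900ZS, fell (log2 fold change -0.48, edgeR adjusted p = 0.000925). BnaA08G0138400ZS, 7869 bp upstream of BnaA08G0138500ZS on the opposite strand, rose from 1188, 1388 and 936 to 7856, 7646 and 8574 counts (log2 fold change 2.97, SE 0.10, edgeR adjusted p = 1.82e-08), of which the member's counts were 4.31%. No mutant value of either neighbour overlapped the WT values. How often this held over all genes was not counted, and 51.7% of all genes tested were called.

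BnaC05G0014800ZS (C05, 1009595 to 1011074, minus strand) had raised genes on both sides. The downstream BnaC05G0014700ZS rose from 26, 12 and 22 to 2979, 2222 and 2783 counts (log2 fold change 7.23, SE 0.24, edgeR adjusted p = 1.62e-08). The upstream BnaC05G0014900ZS rose from 2990, 3798 and 2068 to 24484, 30024 and 34380 counts (log2 fold change 3.52, SE 0.16, edgeR adjusted p = 9.64e-08). The member itself had 38, 20 and 34 counts in the mutant. This locus was singled out after its values were seen. Over the 32 pairs of a member and a flank that rose at least 2-fold, the member's mutant counts ranged from 0.104% to 421% of the flank's, with a median of 27.8%. In 14 pairs the member was under 10% of the flank, and in 11 it exceeded it.

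Both nearest genes were called higher for 9 members and both lower for 2. Over all genes tested, 25.5% were called higher and 26.2% lower. How often both neighbours of other genes were called was not counted. Nothing is therefore read from these numbers or from the like numbers of members below. Among the 9, BnaC08G0199400ZS (C08, 30678771 to 30679019, minus strand; 60, 72 and 57 mutant counts) lay 47 bp from BnaC08G0199300ZS, the next gene downstream on the same strand. That neighbour rose from 3, 6 and 0 counts to 50, 64 and 68 (log2 fold change 4.47, SE 0.57, edgeR adjusted p = 0.000109). Upstream, BnaC08G0199500ZS rose from 333, 442 and 358 to 1433, 1460 and 1486 counts (log2 fold change 2.13, SE 0.10, edgeR adjusted p = 9.04e-08). BnaC03G0221500ZS lay between BnaC03G0221400ZS (log2 fold change 0.47, edgeR adjusted p = 0.00337) and BnaC03G0221600ZS (1.67, adjusted p = 3.85e-07), the former a small and the latter a more than 2-fold rise. Flanks of BnaA07G0018500ZS, BnaA09G0616200ZS and BnaA04G0150300ZS rose by less than 1 on the log2 scale, from 0.39 to 0.80. BnaC02G0184000ZS, the longest member, had raised flanks too, at log2 fold changes of 5.38 upstream and 2.27 downstream (edgeR adjusted p = 8.76e-07 and 0.000395).

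For 5 members one neighbour rose and the other fell. BnaC07G0456600ZS lay 913 bp from BnaC07G0456500ZS, downstream on the opposite strand, which rose from 50, 32 and 44 to 87, 95 and 88 counts (log2 fold change 1.26, SE 0.27, edgeR adjusted p = 0.00296). Its upstream neighbour at 394 bp, BnaC07G0456700ZS, fell from 2616, 3096 and 2210 to 1226, 1470 and 1470 counts (log2 fold change -0.74, SE 0.08, edgeR adjusted p = 4.51e-05). In both neighbours the mutant counts lay apart from the WT counts, in opposite directions. The share of all genes with counts apart in this way was not counted.

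Other members had no called neighbour. For 38 members neither nearest gene was called, and for 16 of these neither was tested. BnaA01G0013200ZS lay between BnaA01G0013100ZS (log2 fold change 0.07, edgeR adjusted p = 0.825) and BnaA01G0013300ZS (0.37, adjusted p = 0.513). Upstream of BnaA10G0271300ZS, BnaA10G0271200ZS had 284, 278 and 312 counts in WT and 234, 224 and 316 in the mutant (log2 fold change -0.01, edgeR adjusted p = 0.957). BnaC05G0483100ZS also had no called neighbour (log2 fold changes -0.21 and 0.08, edgeR adjusted p = 0.0826 and 0.573). The upstream BnaC09G0588000ZS beside BnaC09G0588100ZS was not called either (log2 fold change 0.18, edgeR adjusted p = 0.0987). Of the 180 nearest genes, 56 (31.1%) had at most 2 counts in each WT library, as did 35.1% of all genes, and 41 of these 56 were as low in the mutant. Among all genes 33131 of 35452 such genes were as low in the mutant, and among the flanks of the other genes called at least 16-fold higher 202 of 239.

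Some members on A and C chromosomes had the same span. Of 2009 possible pairs of an A and a C member, 4 had equal spans, and in all 4 the strand was the same. How many of the 2009 pairs share a strand was not counted. The 4 pairs were singled out after their values were seen. BnaA09G0099400ZS (A09) and BnaC09G0099000ZS (C09) both spanned 1057 bp. The former had 125, 120 and 78 counts in the mutant replicates and the latter 48, 40 and 34. Replicate 3 was lowest for both, as it was for 46.7% of all members. BnaA07G0246500ZS (A07; 76, 73 and 71 counts) and BnaC06G0271600ZS (C06; 58, 43 and 54 counts) both spanned 615 bp. The other equal pairs differed more in level. BnaA08G0093800ZS and BnaC08G0134800ZS, both of 306 bp, had 95, 106 and 106 against 154, 190 and 142 mutant counts. BnaA06G0265200ZS and BnaC07G0456600ZS, both of 1509 bp, had 50, 92 and 74 against 280, 266 and 324. BnaA06G0265200ZS was also close in span to BnaC04G0531500ZS (1506 bp, same strand), with 65, 46 and 28 counts. BnaA10G0271300ZS and BnaC09G0588100ZS, at 6.39 ± 0.772 and 6.34 ± 0.993 CPM (SD, n = 3), had spans of 1306 and 1312 bp. This pair, too, was singled out after its values were seen. BnaC09G0588100ZS was nearer in span to BnaA03G0478300ZS (1311 bp), which lay on the opposite strand at a mean of 1.62 CPM. Whether any pair is related by sequence was not tested.

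The reverse rule, at least 20 counts in each WT library and at most 2 in each mutant library, gave a similar number of genes, 82. Without mutant replicate 2 this number was 143 and without mutant replicate 3 it was 136. The member number without any 1 library was between 97 and 121. Leaving out a library removes a condition of the rule, so both numbers could only stay or rise. Of the 82 genes 33 were on A and 49 on C chromosomes, and their median span was 1483 bp against 1189 bp in the members. Their flanks leaned the other way: of 91 tested nearest genes, 43 (47.3%) were called lower and 16 (17.6%) higher.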

How the data were processed

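RNA sequencing libraries of 3 WT and 3 mutant cotyledon samples were analysed from the deposited raw counts of reads per gene, which per the file headers have featureCounts columns. The submitters' processing notes name fastp, HISAT2 and featureCounts. Versions, genome build, strand setting and the treatment of read pairs and multi-mapped reads are not stated in the sources used here. Counts cover whole gene spans, and reads shared by near-identical A and C copies may be split or lost, which leaves single-copy values uncertain. At 48288744 to 65550668 counts per library, counting error matters mainly for the low members.

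All genes were fitted in edgeR 4.0.16 (R 4.3.3) with filterByExpr, TMM and the quasi-likelihood test without covariate, at a Benjamini-Hochberg adjusted p under 0.05; the fit was tested on simulated data. CPM used column sums. Flanks are the nearest non-member genes on each side. Members and lists were chosen with earlier results of these data known. Members named are the 12 with the highest mean CPM, the 3 highest and 3 lowest in CV, the 2 with the lowest count in a mutant library (ties by lowest mean CPM), the shortest and longest, members next to another member (none), and up to 5 with both flanks called higher; others named are said to be chosen after their values were seen. Alternatives were DESeq2 1.42.0, other scalings, no filter, a replicate block, single libraries left out, other thresholds and other flank distances.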

Additional observations from a re-analysis of the deposited data

How the results depend on the processing

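The number of genes changed, 29153, was between 25673 and 29440 over 11 other fits, 28117 with DESeq2. Over the same fits the flanks called higher numbered 45 to 58 (40.6% to 46.6% of those tested, against 18.7% to 25.4% of all genes). Flanks called lower numbered 16 to 24 (13.6% to 22.2%, against 20.5% to 29.7% of all genes). With the 2 nearest genes on each side the flank counts were 90 higher and 45 lower of 213 (42.3% and 21.1%). With the 5 nearest they were 180 and 130 of 536 (33.6% and 24.3%). These counts grow with the genes included, while the share called higher fell. For members with 0 WT counts they were 8 and 7 of 27, fewer members by construction. Without the members on A01 up to 15 Mb and on C06 from 46 to 51 Mb, a setting chosen after seeing the data, they were 47 and 16 of 101. Downstream flanks on the same strand called higher numbered 14 to 17 (50% to 66.7% of those tested, against 18.7% to 25.4% of all genes). The highest number, 17 of 34 without the filter, was the lowest share. The replicate block gave 28374 changed genes and 48 higher and 18 lower flanks. Deviations of libraries with the same number correlated at r = 0.16, -0.04 and 0.09, so the numbers were not taken as pairs. The member number moved with the threshold: 180 with at least 10 counts, 41 with at least 50, 24 with 0 WT counts and 157 with up to 5, and 92 after thinning to the smallest library. For the reverse rule these were 215, 33, 18, 196 and 67. Leaving out single libraries gave 97 to 121 members, 96 to 143 genes under the reverse rule, and a median CV of 15.003% to 26.4%. The gene numbers could only stay or rise here, as a library left out removes a condition of the rule. Depth limits the genes near 0: a WT count of 2 may be 1 read pair.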
